A study of Camelus dromedarius with 30 samples.

Results

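The kidney medulla of dromedary camels given water for 3 days after a long water deprivation was compared with that of camels killed at the end of the deprivation. The comparison set the 5 medulla rehydration libraries against the 5 medulla dehydration libraries, 10 of the 30 libraries of the series, and took in the 15376 of 22444 annotated genes that passed a filter on low counts. All animals were male, 4 to 5 years old and housed on a ranch with hay. Control camels drank freely throughout, dehydrated camels had feed but no water for 20 days, and rehydrated camels went through the same 20 days and then drank at will for 3 days. Each group held 5 different animals, so that no camel was sampled before and after drinking. Cortex libraries came from 5 camels of each group. The medulla libraries came from whole frozen tissue ground to powder, with poly(A) selection, from kidneys that were collected within 1 hour of death and not perfused, so that every segment and cell type of the medulla, and blood, could add RNA. In such bulk tissue fewer cells of a type and less RNA per cell cannot be told apart. The dehydration libraries held 18368593 to 19780774 counted read pairs, the rehydration libraries 15780491 to 19956060 and the control libraries 16799212 to 20005136. Below, DH1 to DH5 and RH1 to RH5 are the dehydration and rehydration libraries by their replicate number, and values listed for a group follow that order. Where 2 levels or 2 lists of levels are given without a group, the first is dehydration and the second rehydration, and a level after ± is the SD over 5 animals. The p-values rest on the spread between animals within groups, estimated over all 30 libraries in 6 groups of tissue and condition. Cortex and medulla libraries entered as independent, also where they came from the same camel. Positions are on the CamDro2 assembly.

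The renal medulla holds the loops of Henle, the vasa recta and the collecting ducts, and concentrates urine along a gradient of salt and urea. Its cells take up or make organic osmolytes, and its collecting ducts let water through aquaporins under the control of vasopressin. Cholesterol, which sets how fluid and how permeable the plasma membrane is, is made from acetyl-CoA through mevalonate, farnesyl diphosphate and squalene. The genes of this pathway share a pair of transcription factors, the sterol regulatory element-binding proteins (SREBPs), which leave the endoplasmic reticulum for the nucleus when membrane sterol is low.

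Within 3 days of water, genes of sterol synthesis rose, HMGCS1, DHCR7 and LSS among them by more than 3-fold. Among the genes that rose with the smallest p were also TUBB, a tubulin, OGDH, an enzyme of the citric acid cycle, and PCYT2, an enzyme of phospholipid synthesis. The genes that fell included ACSBG1, a fatty acyl-CoA synthetase, CP, which encodes ceruloplasmin, and MYRFL. Levels are given as CPM, counts relative to the library total, scaled between libraries by the trimmed mean of M-values (TMM), and compare a gene with itself across libraries, not one gene with another. With edgeR's quasi-likelihood test and a Benjamini-Hochberg adjusted p below 0.05, 306 genes passed (1.99% of those tested), of which 177 rose (1.15%) and 129 fell (0.839%). At an unadjusted p below 0.05 there were 2674 (17.4%). Those that rose had a median log2 fold change of 1.10 and those that fell of -0.63, so that 100 of the 177 but 31 of the 129 changed at least 2-fold. In 226 of the 306 the levels of the 5 rehydrated and the 5 dehydrated animals did not overlap, which held for 730 of all tested genes (4.75%). The genes named below as most changed or of smallest p were chosen among those without overlap. For them the lack of overlap was fixed by the choice. The median log2 fold change of all tested genes was 0.00. The plot of level against fold change shows how the changes were spread.

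**Figure D1:**
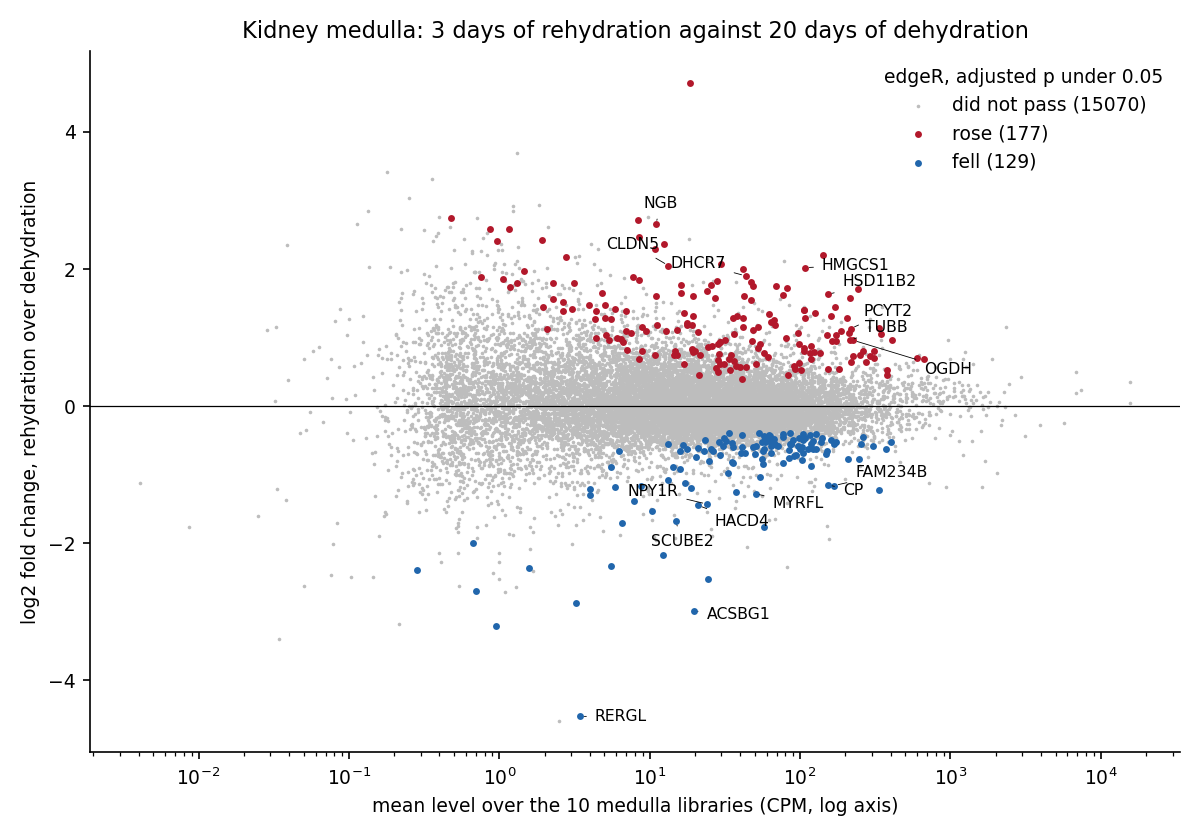
Each point is 1 of the 15376 tested genes, placed by its mean level over the 10 medulla libraries (CPM, log axis) and its log2 fold change, rehydration over dehydration. Genes that rose are red (177), genes that fell are blue (129) and the others are grey, and sterol genes such as HMGCS1, at 2.02, stand near the upper edge and RERGL, at -4.53, at the lower.

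The number of genes called depended on single animals, and beside each group of genes below the calls that ended when 1 library was left out are named. Without RH1, 83 genes passed, without DH3 94, without DH4 107 and without DH2 162, while the fits without DH1, DH5, RH2, RH4 or RH5 gave 227 to 283. RH3 had the lowest depth and stood apart from the other medulla libraries on the first principal component (score 91.1, the others -65.2 to 39.8, 30.8% of the variance). Without RH3, 279 genes passed, but 37.6% of these rose in place of 57.8%. Its RNA integrity was the lowest of the libraries compared. The part of these features in the results below was not tested beyond leaving it out and a fit with RNA integrity as a covariate, which called 219 genes. Fitting the 10 libraries alone called 56 genes, fitting the 15 medulla libraries alone called 479, and DESeq2 called 860. Names of genes were at hand for 3760 tested genes, of which 173 were called (4.6%). Of the named genes, 1367 had their symbol from transcript lists that the study chose on these same camels (10.7% called), and the other 2393 had it from other sources (1.13% called), against 133 of 11616 genes without a symbol (1.14%), so that counts over named families are not independent of these samples.

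Sterol synthesis was the pathway with the most members called among the lists examined. Of the 19 enzymes listed here 18 were tested, 9 rose, 0 fell and 9 did not pass, and the median log2 fold change was 1.07 against 0.00 for all genes. Beside this, 1.99% of all genes and 4.6% of those with a symbol were called. Of the 18, 16 had their symbol from the study's own transcript lists (10.7% called), which limits what the count can add. Summed over the 18 enzymes, the level was 752, 701, 653, 684 and 720.2 CPM in DH1 to DH5 and 1376, 1557, 1762, 1502 and 1432 CPM in RH1 to RH5. Every rehydrated animal was thus above every dehydrated one, by 2.17-fold in the means, and the values of the 2 groups were far apart. In the 5 control animals the sum was 2289, 2243, 2731, 1555 and 2058 CPM, and the rehydrated mean was 0.701 of the control mean (1526 ± 149 against 2175 ± 425 CPM, SD, n = 5 each). Leaving out RH3 gave a ratio of 2.09, and with 1 library left out at a time 7 to 9 of the 18 enzymes rose and none fell. With limma-voom 12 rose, with the bias-adjusted edgeR fit 13 and with DESeq2 14.

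The first stretch of the pathway runs from acetyl-CoA to farnesyl diphosphate. HMGCS1 (ENSCDRG00005014801, chr3:88745835-88764145, plus strand), which condenses acetyl groups into HMG-CoA, stood at 40.7, 41.8, 43.2, 49.8 and 37.5 CPM in the dehydrated and at 209, 226, 219, 130.2 and 82.9 CPM in the rehydrated libraries (4.07-fold, log2 fold change 2.02 ± 0.38 (SE), edgeR adjusted p = 0.00567). Its level was nearly the same in all dehydrated animals and varied among the rehydrated ones, RH4 and RH5 being lowest, with no overlap. MVD (ENSCDRG00005020571, chr21:910186-915248, plus strand), the decarboxylase that yields isopentenyl diphosphate, stood at 14.3, 11.4, 10.5, 8.09 and 14.1 CPM and then at 38.7, 29.5, 61.5, 26.2 and 42.5 CPM (3.4-fold, log2 fold change 1.76 ± 0.24 (SE), edgeR adjusted p = 9.6e-05). RH3 had most of it, and the groups did not overlap. The isomerase IDI1 averaged 24.2 ± 5.03 CPM (SD, n = 5) in dehydration and 58.7 ± 3.52 in rehydration (log2 fold change 1.28 ± 0.29 (SE), edgeR adjusted p = 0.0195). FDPS, farnesyl diphosphate synthase, averaged 58.1 ± 13.2 and 153 ± 32.5 CPM (log2 fold change 1.40 ± 0.22 (SE), edgeR adjusted p = 0.00092). Neither gene overlapped between the groups. The thiolase ACAT2 and the kinases MVK and PMVK did not pass, with log2 fold changes and edgeR adjusted p of 0.68 and 0.0505, 0.62 and 0.0596, and 0.60 and 0.128. The calls of HMGCS1, MVD and FDPS held without any 1 of the 10 libraries. IDI1 without DH3 (0.0509) no longer passed the edgeR test (adjusted p in parentheses).

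The second stretch runs from squalene to cholesterol. DHCR7 (ENSCDRG00005021350, chr10:2834903-2848572, plus strand), which makes the last reduction of the sterol ring, stood at 19.7, 16.9, 19.6, 17.1 and 18.5 CPM in the dehydrated and at 65, 70.2, 65.9, 55.1 and 86.2 CPM in the rehydrated libraries (3.73-fold, log2 fold change 1.90 ± 0.20 (SE), edgeR adjusted p = 1.9e-06). It was among the 5 genes that rose with the smallest p, which were chosen among genes without overlap, and had little spread among the dehydrated animals. The controls, at 94.2, 77.8, 82.3, 46 and 53.8 CPM, overlapped those of the rehydrated animals. LSS (ENSCDRG00005021905, chr1:124469469-124490427, minus strand), which closes the ring system to lanosterol, stood at 14.7, 21.5, 23, 24.4 and 21.7 CPM and then at 77.6, 68.3, 49.8, 54.9 and 117 CPM (3.49-fold, log2 fold change 1.81 ± 0.30 (SE), edgeR adjusted p = 0.00134). RH5 had most of it, and all rehydrated animals had more than any dehydrated one. CYP51A1 (ENSCDRG00005022091, chr7:22370281-22385051, minus strand), the demethylase of lanosterol, averaged 31.7 ± 4.36 and 106 ± 13.1 CPM (3.36-fold, log2 fold change 1.75 ± 0.24 (SE), edgeR adjusted p = 0.00011). SQLE, which oxidises squalene and is a control point of the pathway, averaged 37.8 ± 13.5 and 116 ± 24.8 CPM (log2 fold change 1.62 ± 0.26 (SE), edgeR adjusted p = 0.00117), DH2 being the highest dehydrated animal at 61.1 CPM. NSDHL, of the later demethylation steps, averaged 46.5 ± 11.3 and 75.9 ± 16.3 CPM with overlap (log2 fold change 0.71 ± 0.16 (SE), edgeR adjusted p = 0.022). FDFT1, LBR, MSMO1, HSD17B7, EBP and SC5D did not pass. Of these MSMO1 at 1.18 (edgeR adjusted p = 0.0721) and SC5D at 0.96 (0.0712) had groups without overlap, and LBR at -0.04 (0.979) was the only 1 of the 18 enzymes below 0. The calls of SQLE, LSS, CYP51A1 and DHCR7 held without any 1 of the 10 libraries. NSDHL without DH2, DH3, DH4, RH3 or RH4 (0.0521 to 0.0772) no longer passed the edgeR test (adjusted p in parentheses).

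**Figure D2:**
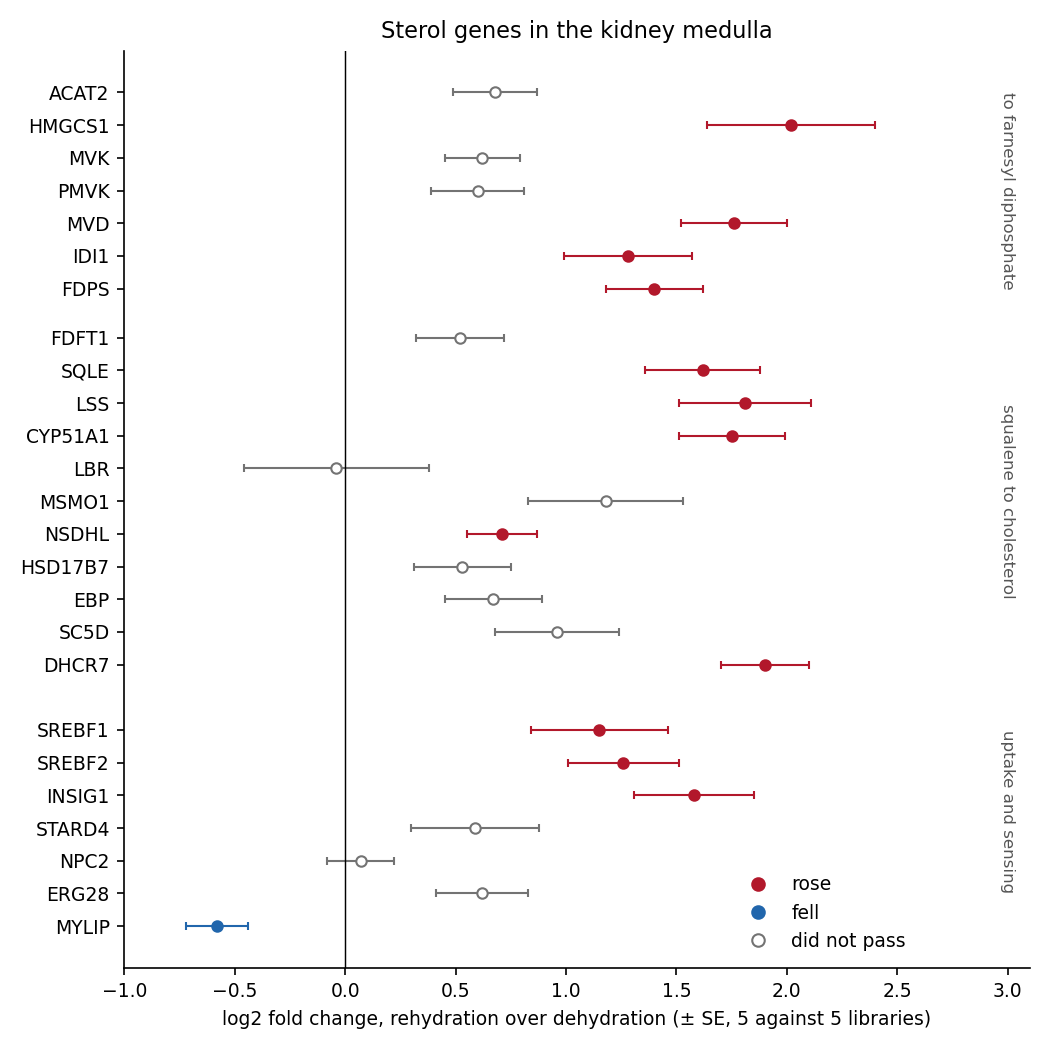
Log2 fold changes, rehydration over dehydration, with their SE (5 against 5 libraries) for the 18 tested enzymes of sterol synthesis in pathway order and 7 genes of sterol uptake and sensing. Filled red points rose, the filled blue point fell and open points did not pass the test. All enzymes but LBR lie above 0, from 0.52 to 2.02.

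Among the genes that control sterol synthesis and uptake, 7 of the 14 listed here were tested, 3 rose, 1 fell and 3 did not pass (median log2 fold change 0.62 against 0.00 for all genes). All 7 symbols came from the study's transcript lists, of whose tested genes 10.7% were called, against 1.99% of all genes. INSIG1, which holds the SREBPs in the endoplasmic reticulum, stood at 11.7, 13.6, 13.4, 13.8 and 16.1 CPM in the dehydrated and at 64.7, 41.8, 33.2, 33.7 and 31.1 CPM in the rehydrated libraries (log2 fold change 1.58 ± 0.27 (SE), edgeR adjusted p = 0.00182), without overlap. SREBF2, which encodes the SREBP of sterol synthesis, averaged 39.4 ± 5.08 and 94.3 ± 23.9 CPM (log2 fold change 1.26 ± 0.25 (SE), edgeR adjusted p = 0.00925). SREBF1, which encodes the SREBP of fatty acid synthesis, averaged 25.7 ± 7.49 and 57.2 ± 14.8 CPM (log2 fold change 1.15 ± 0.31 (SE), edgeR adjusted p = 0.0492). Neither overlapped between the groups. MYLIP, a ubiquitin ligase that restrains cholesterol uptake, fell from 86.1 ± 13 to 57.5 ± 7 CPM (log2 fold change -0.58 ± 0.14 (SE), edgeR adjusted p = 0.0283), without overlap. The sterol carriers STARD4 and NPC2 and the scaffold ERG28 did not pass, at 0.59, 0.07 and 0.62 (edgeR adjusted p = 0.303, 0.873 and 0.116). The calls of INSIG1 and SREBF2 held without any 1 of the 10 libraries. SREBF1 without DH1, DH2, DH3, DH4, RH1, RH2, RH3 or RH5 (0.0525 to 0.14) and MYLIP without DH2, DH3, DH4, RH1, RH3 or RH4 (0.0519 to 0.109) no longer passed the edgeR test (adjusted p in parentheses).

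The other comparisons share libraries with this one, and each gene's own values are given side by side. Between dehydration and control 149 genes were called in the medulla (0.969%), and between rehydration and control 34 (0.221%). Against control, DHCR7 had a log2 fold change of -1.95 in dehydrated medulla (edgeR adjusted p = 7.35e-07) and of -0.05 in rehydrated medulla (0.973). For HMGCS1 these were -2.60 (0.000367) and -0.58 (0.565), and for INSIG1 -2.42 (4.87e-06) and -0.84 (0.157). None of the 9 enzymes and 3 regulators that rose passed the test between rehydration and control. In the cortex, the rehydration response of DHCR7 was 1.40 (0.00034), that of MVD 0.58 (0.225) and that of SREBF2 0.51 (0.347). The difference between the tissues was itself tested and did not pass for any of these 25 sterol genes (lowest edgeR adjusted p = 0.249 for MVD), which does not show that the tissues responded alike.

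Genes of fatty acid metabolism changed in part. In fatty acid synthesis 10 of 14 listed genes were tested, 2 rose, 1 fell and 7 did not pass (median 0.63). In fatty acid oxidation 12 of 20 were tested, 2 rose, 0 fell and 10 did not pass (median -0.08). Over all genes 1.99% were called, and over those with a symbol 4.6%. Of the tested members, 8 of 10 and 8 of 12 had their symbol from the study's transcript lists, of whose tested genes 10.7% were called. ACSBG1 (ENSCDRG00005018776, chr27:21749381-21796517, minus strand), which activates long-chain fatty acids with coenzyme A, stood at 83.1, 23.7, 12.8, 39.3 and 15.9 CPM in the dehydrated, at 4.94, 1.13, 9.38, 3.36 and 3.21 CPM in the rehydrated and at 0.574, 0.411, 0.223, 0.197 and 0.167 CPM in the control libraries. All dehydrated animals were above all rehydrated ones, which were in turn above all controls. The fall with rehydration was 7.97-fold (log2 fold change -2.99 ± 0.55 (SE), edgeR adjusted p = 0.00406), and without DH1, the highest, the log2 fold change was -2.39. Against control, ACSBG1 was higher in dehydration (log2 6.76, edgeR adjusted p = 7.35e-07) and also after 3 days of water (log2 3.76, 0.00522), and in the cortex it fell with rehydration (log2 -3.45, 0.0073). SCD, the desaturase that makes oleate, stood at 111, 149, 98.5, 111 and 127 CPM in the dehydrated and at 172, 327, 136, 433 and 385 CPM in the rehydrated libraries (log2 fold change 1.28 ± 0.30 (SE), edgeR adjusted p = 0.0251). RH2, RH4 and RH5 were high, and RH3 lay within the dehydrated range. ACSS2, which makes acetyl-CoA from acetate, averaged 42.5 ± 7.97 and 72.7 ± 11.6 CPM (log2 fold change 0.77 ± 0.19 (SE), edgeR adjusted p = 0.0294), and AACS, which feeds ketone bodies into lipid synthesis and was chosen after its values were seen, 37.6 ± 8.85 and 67.5 ± 6.69 CPM (log2 fold change 0.84 ± 0.17 (SE), edgeR adjusted p = 0.00901). ACLY, ACACA, ELOVL6, FADS1 and THRSP, also of lipid synthesis, did not pass, with log2 fold changes of 0.45 to 1.37 (edgeR adjusted p 0.0759 to 0.288), nor did FA2H (-0.11, 0.68) and ACSL3 (-0.16, 0.807), the other members of the list.

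Among the genes of fatty acid oxidation, FABP3, which carries fatty acids in the cytosol, stood at 206, 152, 256, 185 and 249.8 CPM in the dehydrated and at 322, 378, 733, 603 and 272 CPM in the rehydrated libraries (2.2-fold, log2 fold change 1.14 ± 0.26 (SE), edgeR adjusted p = 0.0195). RH3 and RH4 were highest, and the groups did not overlap. ACADS, the short-chain acyl-CoA dehydrogenase, averaged 221 ± 56.8 and 367 ± 51.1 CPM (log2 fold change 0.73 ± 0.17 (SE), edgeR adjusted p = 0.0253), RH2 being the lowest rehydrated animal at 279 CPM and DH5 the highest dehydrated one at 278 CPM. The long-chain dehydrogenase ACADVL had a log2 fold change of -0.52 and did not pass (edgeR adjusted p = 0.0931), and 5 of the 12 genes were above 0 and 7 below. The calls of ACSBG1 and AACS held without any 1 of the 10 libraries. With the 10 libraries alone, however, no listed gene of fatty acid synthesis or oxidation was called, ACSBG1 included. SCD without DH1, DH3, DH4, RH4 or RH5 (0.0502 to 0.0742), ACSS2 without DH2, DH3, DH4, RH2, RH3 or RH5 (0.0507 to 0.0869), ACADS without DH3, DH4 or RH1 (0.0801 to 0.0934) and FABP3 without DH2, DH4 or RH3 (0.0545 to 0.0579) no longer passed the edgeR test (adjusted p in parentheses).

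A few transcripts of the respiratory chain rose, and most differences were small. Of 40 tested subunits and assembly factors of oxidative phosphorylation 6 rose, 0 fell and 34 did not pass. The share called was 1.99% over all genes and 4.6% over those with a symbol. Of the 40 symbols, 15 came from the study's transcript lists (10.7% called). All 40 members had log2 fold changes above 0 (median 0.43, range 0.04 to 1.48, against a median of 0.00 and 50.4% above 0 for all genes). Without DH2, DH3, DH4 or RH1 1 of them rose, without RH3 or RH4 2, and with the 10 libraries alone 0. With no filter, or with RNA integrity as a covariate, 3 rose, with limma-voom or the bias-adjusted edgeR fit 9 and with DESeq2 11. Their summed level was 11043, 10308, 10507, 8024 and 12080.3 CPM in DH1 to DH5 and 13379, 12455, 15098, 15834 and 11831 CPM in RH1 to RH5. DH4 was lowest and RH4 highest, and RH5 lay just below DH5, so that the groups overlapped (1.32-fold in the means, 1.29 without RH3). The controls had 17539, 14068, 18931, 14214 and 13039 CPM. These are short transcripts (median length 1189 bases), and the median log2 fold change of all genes ran from 0.11 in genes of up to 1193 bases to -0.05 in genes of 3742 bases or more, or from 0.04 to 0.01 without RH3. The cytosolic ribosomal proteins, shorter still (median 800 bases), had 0 of 36 called by edgeR and a median of 0.22 that went to -0.05 without RH3, whose ribosomal sum of 48662 CPM was the highest of the 15 medulla libraries. For oxidative phosphorylation the median without RH3 was 0.39, with 38 of 40 above 0. The part of transcript length and of RH3 in the other values was not tested.

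**Figure D3:**
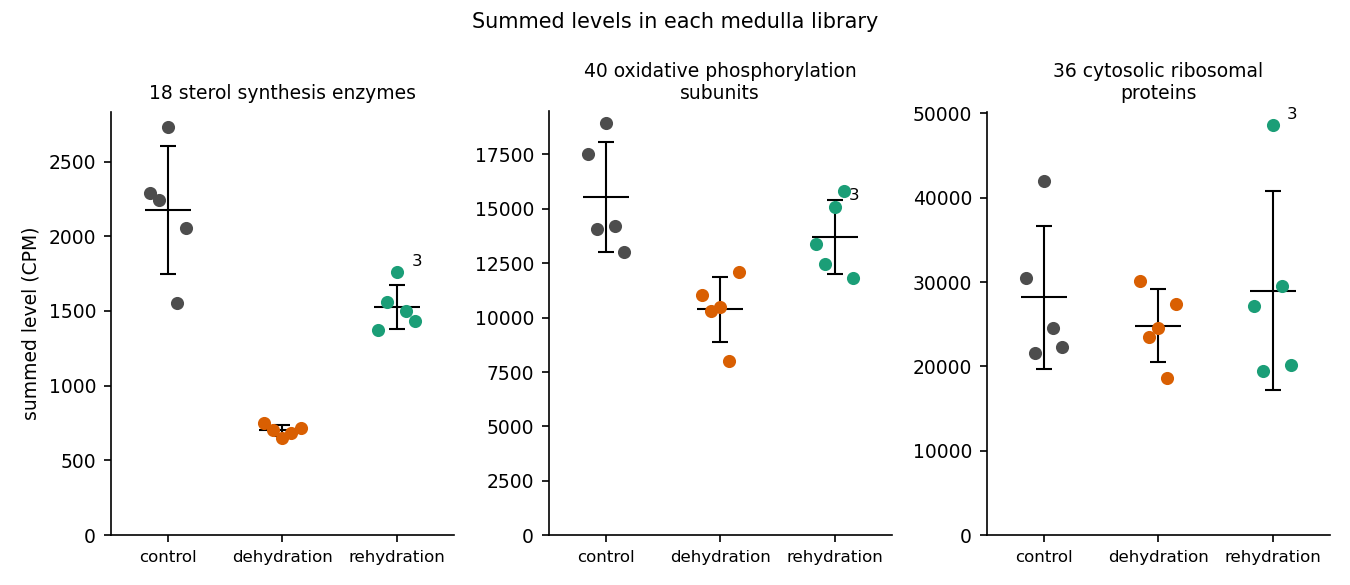
Summed levels (CPM) of 3 gene lists in each of the 15 medulla libraries. Points are animals, horizontal bars means and error bars SD (n = 5), and RH3 is marked 3. The sterol sums of the dehydrated animals, 653 to 752 CPM, lie below those of all other animals, the oxidative phosphorylation sums of the groups overlap slightly, and the ribosomal sums overlap widely.

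Of the 6 that rose, ATP5IF1, the inhibitor of the ATP synthase, stood at 123, 119, 101, 75.8 and 142 CPM in the dehydrated and at 254, 160.2, 252, 189 and 226 CPM in the rehydrated libraries (1.93-fold, log2 fold change 0.95 ± 0.18 (SE), edgeR adjusted p = 0.00653), without overlap. ATP5MC1, ATP5F1C and ATP5F1D are subunits of the ATP synthase and NDUFA2 and NDUFB8 of complex I. They had log2 fold changes (± SE, edgeR adjusted p) of ATP5MC1 0.73 ± 0.18, 0.0284, ATP5F1C 0.45 ± 0.12, 0.0492, ATP5F1D 1.36 ± 0.36, 0.0467, NDUFA2 0.85 ± 0.23, 0.0466 and NDUFB8 0.64 ± 0.16, 0.0305, each without overlap. OGDH (ENSCDRG00005002918, chr7:1130574-1204569, minus strand), a subunit of the oxoglutarate dehydrogenase of the citric acid cycle, was among the 5 genes with the smallest p of those that rose. It stood at 144, 157, 163, 146 and 155 CPM in DH1 to DH5 and at 344, 349, 272, 253 and 274 CPM in RH1 to RH5 (1.95-fold, log2 fold change 0.96 ± 0.12 (SE), edgeR adjusted p = 4.9e-05). The groups did not overlap, which the choice of OGDH required, and the controls were between the groups at 183, 235, 202, 218 and 213 CPM. Further mitochondrial genes were chosen after their values were seen, and their number says nothing about mitochondria as a whole. IDH2, the mitochondrial isocitrate dehydrogenase, averaged 456 ± 59.1 and 742 ± 93.2 CPM (log2 fold change 0.70 ± 0.17 (SE), edgeR adjusted p = 0.0266). SAMM50, TOMM40 and TIMM17A, which insert or import mitochondrial proteins, had log2 fold changes of 0.59 ± 0.12, 0.53 ± 0.13 and 0.62 ± 0.14 (edgeR adjusted p = 0.00774, 0.0253 and 0.0195). None of these overlapped between the groups, whereas 0 of 54 mitochondrial ribosomal proteins were called by edgeR (median 0.13). The calls of ATP5IF1, OGDH and SAMM50 held without any 1 of the 10 libraries. ATP5MC1 without DH2, DH3, DH4, RH1 or RH4 (0.0555 to 0.1), ATP5F1C without DH2, DH3, DH4, RH1, RH2, RH3 or RH4 (0.0648 to 0.144), ATP5F1D without DH1, DH2, DH3, DH4, DH5, RH1, RH3 or RH5 (0.056 to 0.134), NDUFA2 without DH1, DH2, DH3, DH4, RH1, RH3, RH4 or RH5 (0.0594 to 0.139), NDUFB8 without DH2, DH3, DH4, RH1, RH3 or RH4 (0.0605 to 0.109), IDH2 without DH1, DH2, DH4 or RH1 (0.0628 to 0.0997), TIMM17A without DH3 or DH4 (0.0519 to 0.0703) and TOMM40 without DH1, DH2, DH4 or RH4 (0.0517 to 0.078) no longer passed the edgeR test (adjusted p in parentheses).

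Tubulins, the subunits of microtubules, formed a group that came to notice through TUBB, 1 of the 5 genes that rose with the smallest p, and whose other members were looked up afterwards. TUBB (ENSCDRG00005018240, chr20:20218966-20222609, plus strand) stood at 144, 139, 149, 134 and 166 CPM in the dehydrated and at 255, 324, 277, 274 and 292 CPM in the rehydrated libraries (1.94-fold, log2 fold change 0.96 ± 0.12 (SE), edgeR adjusted p = 2.4e-05). Both groups were tight and far apart, and the controls, at 192, 207, 173, 228 and 149.9 CPM, were lower than the rehydrated animals (log2 0.58, 0.038). TUBB2B stood at 119.7, 109.8, 80.9, 88 and 62.8 CPM and then at 288, 215, 303, 193 and 256 CPM (2.72-fold, log2 fold change 1.44 ± 0.24 (SE), edgeR adjusted p = 0.00134). TUBB4B averaged 99.1 ± 15.5 and 202 ± 36.8 CPM (log2 fold change 1.03 ± 0.22 (SE), edgeR adjusted p = 0.0152), and TUBB6 20.9 ± 4.43 and 51.2 ± 15.5 CPM (log2 fold change 1.29 ± 0.30 (SE), edgeR adjusted p = 0.0219). Both were also higher in rehydration than in control (log2 1.09, 0.0402, and 1.37, 0.0423). The alpha-tubulin TUBA4A averaged 54.3 ± 7.78 and 108 ± 15.5 CPM (log2 fold change 0.99 ± 0.22 (SE), edgeR adjusted p = 0.0171). None of the 5 overlapped between the groups. Over all tested genes 1.99% were called and 4.75% did not overlap, and over those with a symbol 4.6% were called. Only tubulins with a symbol could be looked up. As a called gene led to the group, the number of members called says nothing about tubulins as a whole. TUBB4A, at 0.276 to 1.07 and 1.41 to 3.21 CPM, did not pass (1.82, edgeR adjusted p = 0.0663), nor did TUBB1 (-1.29, 0.345) and TUBAL3 (0.63, 0.572), both at or below 1.52 CPM in these libraries. Beta-tubulin genes are near-identical over long stretches, so that how reads were shared among them is uncertain. The calls of TUBB and TUBB2B held without any 1 of the 10 libraries. TUBB4B without DH4 (0.0555), TUBB6 without DH3, DH4, RH1 or RH3 (0.0501 to 0.0735) and TUBA4A without DH3 or DH4 (0.0506 to 0.0579) no longer passed the edgeR test (adjusted p in parentheses).

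Of the genes of water and salt transport, by which the medulla concentrates urine, 21 of the 31 listed here were tested, 1 rose, 1 fell and 19 did not pass (median 0.07 against 0.00), beside 1.99% called over all genes and 4.6% over those with a symbol. HSD11B2, which inactivates cortisol in principal cells and so leaves the mineralocorticoid receptor to aldosterone, stood at 94.2, 62.7, 82.4, 40.1 and 94.1 CPM in the dehydrated and at 229, 281, 313, 243 and 90.4 CPM in the rehydrated libraries (3.1-fold, log2 fold change 1.63 ± 0.25 (SE), edgeR adjusted p = 0.00035). RH1 to RH4 were all well above the dehydrated animals and RH5 lay among them. The controls were at 112 to 204 CPM. ATP1B3, a beta subunit of the sodium pump, stood at 183, 179, 217, 165 and 184 CPM and then at 77.5, 131, 141, 115 and 123 CPM (log2 fold change -0.66 ± 0.15 (SE), edgeR adjusted p = 0.022), without overlap.

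The aquaporins did not pass. AQP2, the vasopressin-regulated water channel of the collecting duct, stood at 288, 420.1, 769, 500.0 and 534 CPM in the dehydrated and at 487, 434, 391, 309 and 456 CPM in the rehydrated libraries (log2 fold change -0.27 ± 0.22 (SE), edgeR adjusted p = 0.584), with DH3 highest and DH1 lowest of the 10 animals. AQP3, the channel on the other side of the same cells, stood at 66.1, 149, 330.2, 134 and 176 CPM and then at 106, 53.6, 45.2, 45.2 and 130.4 CPM (log2 fold change -1.17 ± 0.52 (SE), edgeR adjusted p = 0.233). DH3 was again highest, and the spread among dehydrated animals was wide. AQP1, the channel of the thin descending limb, averaged 4317 ± 501 and 3574 ± 1049 CPM (log2 fold change -0.27 ± 0.26 (SE), edgeR adjusted p = 0.663). The epithelial sodium channel subunit SCNN1A (0.61, edgeR adjusted p = 0.121), the potassium channel KCNJ8 (-0.44, 0.229), the urea transporter SLC14A1 (-0.41, 0.742) and the exchanger SLC9A7 (0.10, 0.912) did not pass either. In the osmolyte and tonicity list 8 of 16 genes were tested, 0 rose, 1 fell and 7 did not pass, with 4 of 8 log2 fold changes above 0 (median -0.12). Beside this, 1.99% of all genes and 4.6% of those with a symbol were called. With the 15 medulla libraries alone, or the 10 libraries alone, 0 of the 8 fell. The gene that fell was SLC4A11, a transporter of the bicarbonate carrier family, at 22, 36, 115, 53.4 and 36.2 CPM and then at 23.4, 20.5, 20.4, 23.1 and 23.3 CPM (log2 fold change -1.25 ± 0.31 (SE), edgeR adjusted p = 0.033), where DH3 was far above the others, DH1 lay within the rehydrated range and the rehydrated animals were nearly equal. The betaine transporter SLC6A12 (-0.26, 0.829) and the taurine transporter SLC6A6 (-0.57, 0.273) did not pass, nor did the heat shock protein HSPB1 (0.35, 0.709) and PNPLA6 (0.35, 0.473), which frees the osmolyte glycerophosphocholine. The call of HSD11B2 held without any 1 of the 10 libraries, but with the 10 libraries alone neither HSD11B2 nor ATP1B3 was called. ATP1B3 without DH3 or RH1 (0.0712 to 0.0845) and SLC4A11 without DH3, DH4, RH1, RH2, RH3, RH4 or RH5 (0.0503 to 0.178) no longer passed the edgeR test (adjusted p in parentheses).

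Markers of the cell types of the kidney were read to see whether the tissue sampled was alike. Medullary segments were present in every library. The summed level of 4 thick ascending limb markers, UMOD among them, was 10993 to 18889 CPM in dehydration and 12339.5 to 21494 in rehydration, and that of 4 principal cell markers 697 to 1497 CPM in dehydration and 919.6 to 1171 in rehydration. None of the tested markers of any cell type was at 0 in all 10 libraries. The filter on low counts made this likely beforehand, and listed markers without a symbol were not read. Of the thick ascending limb markers none was called by edgeR (0 of 4), and of the principal cell markers HSD11B2 alone. Markers of the proximal tubule, a segment of cortex and outer stripe, were present at 201 to 725 CPM in dehydration and 449.6 to 1032 in rehydration (8 genes). None was called (0 of 8), but 7 of 8 log2 fold changes were above 0 (median 0.98), with SLC17A3 at 1.76 (edgeR adjusted p = 0.0762). The sums for endothelium were 641 to 1064 CPM in dehydration and 568 to 965 in rehydration, those for interstitium and smooth muscle 349 to 652 CPM in dehydration and 515 to 1051 in rehydration, and those for immune cells 103 to 588 CPM in dehydration and 113 to 359.6 in rehydration. Of the 7 interstitium and smooth muscle markers 6 were above 0 (median 0.63), and the ratio of their mean sums was 1.42, or 1.25 without RH3. For the proximal tubule this ratio was 1.4 (1.47 without RH3), for the thick ascending limb 1.27, for principal cells 1.11, for endothelium 0.868 and for immune cells 0.735. Of the 4 principal cell markers 2 log2 fold changes were above 0 and 2 below, from -1.17 for AQP3 to 1.63 for HSD11B2. The 4 intercalated cell markers summed to 254 to 427 CPM in dehydration and 331 to 668 in rehydration (ratio 1.57, 1.48 without RH3), and all 4 log2 fold changes were above 0 (median 0.77). All of these sums overlapped between the groups, and their part in the results was not tested. Of the intercalated cell markers 1 rose, ATP6V1B1, a subunit of the proton pump that these cells use to acidify urine. It stood at 129, 168, 125, 109.5 and 158 CPM in the dehydrated and at 379, 277, 290.2, 327 and 168 CPM in the rehydrated libraries (2.09-fold, log2 fold change 1.07 ± 0.16 (SE), edgeR adjusted p = 0.00031), RH5 being just above the highest dehydrated animal. ATP6V0A4, RHCG and RHBG, the other markers, had log2 fold changes of 0.11, 0.48 and 1.41 and did not pass (edgeR adjusted p = 0.795, 0.452 and 0.157), and ATP6V1B1 was the only 1 of 11 subunits and accessory proteins of the vacuolar pump that was called. The call of ATP6V1B1 held without any 1 of the 10 libraries, but it was lost with the 10 libraries alone.

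**Figure D4:**
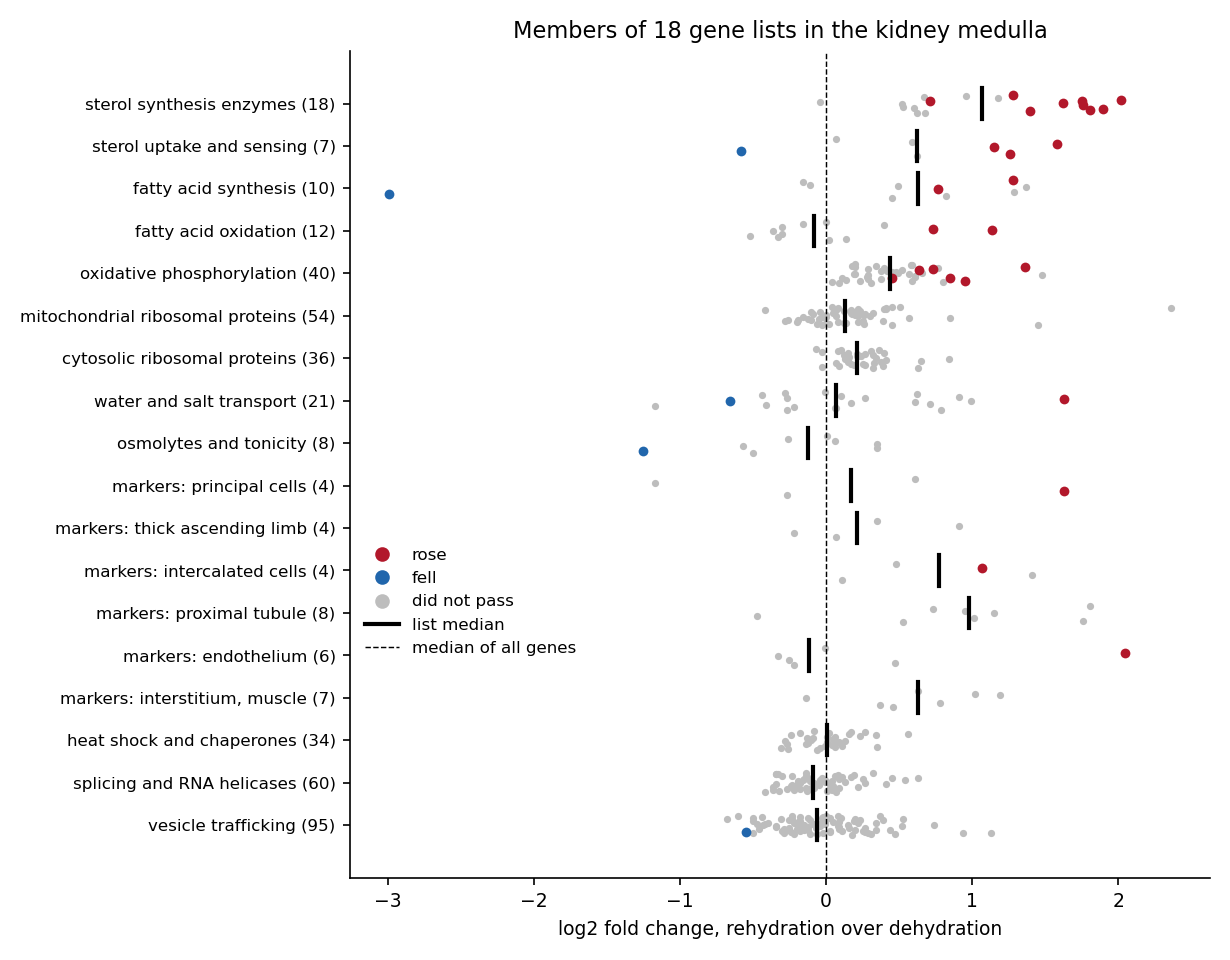
Log2 fold changes, rehydration over dehydration, of the tested members of 18 gene lists, with the number of members in parentheses. Each point is a gene, red where it rose, blue where it fell and grey where it did not pass. Thick bars are list medians and the dashed line is the median of all genes (0.00). The sterol enzymes have the highest median (1.07) and the most red points (9).

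Genes of other kinds were also among those that rose most or with the smallest p, and their choice required that the groups did not overlap. PCYT2 (ENSCDRG00005009142, chr16:949595-955598, plus strand), the control enzyme of phosphatidylethanolamine synthesis, stood at 136, 141, 134, 114 and 156 CPM in the dehydrated and at 359, 229.8, 329, 279.7 and 295 CPM in the rehydrated libraries (2.19-fold, log2 fold change 1.13 ± 0.15 (SE), edgeR adjusted p = 5.7e-05), without overlap. MAB21L4 (ENSCDRG00005021755, chr5:96848112-96857642, minus strand) stood at 10.3, 12.7, 10.3, 8.88 and 15 CPM and then at 82.5, 20.3, 66.8, 43.4 and 28.3 CPM (4.22-fold, log2 fold change 2.08 ± 0.47 (SE), edgeR adjusted p = 0.0195). RH1 and RH3 had most of it and RH2 least. CLDN5 (ENSCDRG00005019043, chr32:773303-773959, plus strand), a tight junction protein of endothelium, stood at 6.57, 4.85, 2.95, 5.85 and 5.71 CPM and then at 20.8, 7.42, 51.6, 11.5 and 16 CPM (log2 fold change 2.05 ± 0.53 (SE), edgeR adjusted p = 0.0414). RH3 was highest, and without it the log2 fold change of CLDN5 was 1.42. Of the other endothelial markers PECAM1, VWF, CDH5, ENG and ESAM none was called by edgeR (-0.33 to 0.47). FLYWCH2 (ENSCDRG00005017836, scaffold JWIN02000773.1, 2626325 to 2628734, plus strand) averaged 7.37 ± 2.08 and 25.1 ± 12.1 CPM (log2 fold change 1.76 ± 0.32 (SE), edgeR adjusted p = 0.00406). The histone gene H2AW (ENSCDRG00005006540, chr3:570412-570804, plus strand), of a family with near-identical members and mostly without poly(A) tails, averaged 1.02 ± 0.222 and 3.54 ± 1.86 CPM (log2 fold change 1.79 ± 0.44 (SE), edgeR adjusted p = 0.0305). SEZ6 (ENSCDRG00005010938, chr16:21820679-21864045, plus strand), known from neurons, was low, at 0.299 to 0.827 CPM in dehydration and 1.07 to 3.57 CPM in rehydration (log2 fold change 1.80 ± 0.41 (SE), edgeR adjusted p = 0.022). Of the identifiers with no symbol, ENSCDRG00005012965 (chr35:18129164-18129608, plus strand) stood at 2.71, 3.02, 1.2, 1.06 and 3.13 CPM and then at 26.5, 3.16, 15.6, 6.17 and 21.6 CPM (log2 fold change 2.71 ± 0.62 (SE), edgeR adjusted p = 0.022), with RH2 barely above DH5. ENSCDRG00005018399 (chr22:27428976-27431926, minus strand) was at 0.157 to 0.858 CPM and then at 1.09 to 4.36 CPM (log2 fold change 2.58 ± 0.65 (SE), edgeR adjusted p = 0.0334), with a log2 fold change of 3.33 without DH5. The calls of PCYT2 and FLYWCH2 held without any 1 of the 10 libraries. MAB21L4 without DH3, DH4 or RH1 (0.0525 to 0.0795), CLDN5 without DH1, DH2, DH3, DH4, DH5, RH1 or RH3 (0.0595 to 0.144), H2AW without DH2, DH3, DH4, DH5, RH1 or RH3 (0.0579 to 0.132), SEZ6 without DH3, DH4 or RH4 (0.0556 to 0.075), ENSCDRG00005012965 without DH3, DH4 or RH1 (0.0678 to 0.0801) and ENSCDRG00005018399 without DH1, DH2, DH3, DH4, RH1 or RH3 (0.0659 to 0.104) no longer passed the edgeR test (adjusted p in parentheses).

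The genes that fell most had mostly low to middling levels. RERGL (ENSCDRG00005015879, chr34:11742762-11751123, minus strand), of the RAS-like family, stood at 1.61, 4.56, 15, 1.53 and 10.3 CPM in the dehydrated and at 0.17, 0.195, 0.424, 0.541 and 0.119 CPM in the rehydrated libraries (23.1-fold lower, log2 fold change -4.53 ± 1.05 (SE), edgeR adjusted p = 0.022). The rehydrated libraries rest on 3 to 10 read pairs each, and the controls, at 0.669, 0.535, 7.62, 9.37 and 3.21 CPM, covered part of the dehydrated range. SCUBE2 (ENSCDRG00005009373, chr10:44403473-44465907, plus strand), a secreted protein that helps release hedgehog ligands, stood at 19.7, 17.1, 41.3, 22.1 and 13.5 CPM and then at 5.5, 4.73, 8.29, 7.09 and 9.8 CPM (3.21-fold lower, log2 fold change -1.68 ± 0.33 (SE), edgeR adjusted p = 0.00707). DH3 had most of it. NRIP3 (ENSCDRG00005009557, chr10:44476600-44498463, plus strand) averaged 15.3 ± 5.51 and 5.3 ± 1.92 CPM (log2 fold change -1.53 ± 0.33 (SE), edgeR adjusted p = 0.0157), with RH2 at 8.59 CPM above the other rehydrated animals. Its gene follows SCUBE2 on the same strand, with no tested gene between them. HACD4 (ENSCDRG00005001352, chr4:61782562-61804750, minus strand), a dehydratase of fatty acid elongation, stood at 21.5, 22, 41, 43.4 and 25.6 CPM and then at 9.55, 10.9, 14.5, 8.71 and 12.6 CPM (2.73-fold lower, log2 fold change -1.45 ± 0.27 (SE), edgeR adjusted p = 0.00422). NPY1R (ENSCDRG00005010732, chr2:6014667-6023742, minus strand), a receptor of neuropeptide Y, averaged 34.9 ± 9.27 and 13 ± 3.53 CPM (log2 fold change -1.43 ± 0.34 (SE), edgeR adjusted p = 0.0265). Both were without overlap, which their choice required. MYRFL (ENSCDRG00005019536, chr12:53994030-54100574, minus strand), a relative of the myelin regulatory factor, had the smallest p of the genes that fell. It stood at 65.5, 56.1, 92.6, 64 and 80.6 CPM and then at 33.7, 23.6, 29.2, 23.9 and 37.4 CPM (2.43-fold lower, log2 fold change -1.28 ± 0.21 (SE), edgeR adjusted p = 0.00093), and the controls were at 23.5 to 51.3 CPM. The calls of SCUBE2, HACD4 and MYRFL held without any 1 of the 10 libraries. RERGL without DH3, RH1 or RH5 (0.0527 to 0.0801), NRIP3 without DH3 or RH1 (0.0555 to 0.0577) and NPY1R without DH3, DH4, RH1 or RH4 (0.0556 to 0.0865) no longer passed the edgeR test (adjusted p in parentheses).

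At higher levels, CP (ENSCDRG00005014857, chr1:24821747-24875359, minus strand), ceruloplasmin, the copper protein that oxidises iron, stood at 231, 245, 201, 208 and 174 CPM in the dehydrated and at 61.7, 81.7, 133, 104 and 97.5 CPM in the rehydrated libraries (2.21-fold lower, log2 fold change -1.15 ± 0.21 (SE), edgeR adjusted p = 0.00422). RH3 had most of it among the rehydrated animals and was still below DH5, the lowest dehydrated one. FAM234B (ENSCDRG00005010600, chr34:8450206-8479484, plus strand) stood at 179, 169, 361, 255 and 201 CPM and then at 112, 122, 114, 86.5 and 87.7 CPM (2.23-fold lower, log2 fold change -1.16 ± 0.20 (SE), edgeR adjusted p = 0.00209), and the controls, at 91.3, 159, 137, 91.3 and 69.9 CPM, covered the rehydrated values. SLC46A3 (ENSCDRG00005004813, chr14:5066846-5083526, minus strand), a lysosomal transporter, stood at 77.3, 88.3, 114, 112 and 99.2 CPM and then at 51.6, 58.7, 68.5, 53.3 and 44.1 CPM (log2 fold change -0.83 ± 0.14 (SE), edgeR adjusted p = 0.0015). These 3 genes did not overlap between the groups, which their choice required. ARMC12 (ENSCDRG00005010107, chr20:24294287-24302702, plus strand) averaged 26.4 ± 6.32 and 11.5 ± 2.42 CPM (log2 fold change -1.20 ± 0.27 (SE), edgeR adjusted p = 0.0187), and RFTN2 (ENSCDRG00005011566, chr5:72859471-72916642, plus strand), a raft protein, 23.6 ± 5.34 and 10.8 ± 3.76 CPM (log2 fold change -1.13 ± 0.26 (SE), edgeR adjusted p = 0.022). NCAPG (ENSCDRG00005019491, chr2:109585496-109622116, minus strand), a condensin subunit that packs mitotic chromosomes, was at 9.1, 12.6, 6.06, 6.4 and 6.31 CPM and then at 4.01, 2.97, 5.57, 1.84 and 3.49 CPM (log2 fold change -1.18 ± 0.30 (SE), edgeR adjusted p = 0.0384), while of 3 tested proliferation genes 0 were called by edgeR. In the cortex NCAPG also fell with rehydration (log2 -1.71, edgeR adjusted p = 0.00284), as did MYRFL (-0.97, 0.013) and SCUBE2 (-1.41, 0.0223). CP (-0.04, 0.956) and FAM234B (0.06, 0.934) did not pass there. The difference between the tissues was itself tested and passed for none of NCAPG, MYRFL, SCUBE2, CP and FAM234B. A response particular to the medulla is thus not shown for CP or FAM234B, nor is a like response in both tissues. The identifier ENSCDRG00005015929 (chr30:22683074-22705033, minus strand) was at 40.6, 64.5, 184, 90.4 and 65.4 CPM and then at 26.3, 34.8, 18.9, 17.9 and 32.8 CPM (log2 fold change -1.77 ± 0.45 (SE), edgeR adjusted p = 0.0389), and ENSCDRG00005003281 (chr3:12555374-12631939, plus strand) at 7.77 to 14.7 and 4.1 to 4.65 CPM (log2 fold change -1.39 ± 0.28 (SE), edgeR adjusted p = 0.00925). The calls of CP, FAM234B, SLC46A3 and ENSCDRG00005003281 held without any 1 of the 10 libraries. ARMC12 without DH2, DH3 or RH1 (0.0507 to 0.074), NCAPG without DH1, DH2, DH3, DH4, RH1, RH2, RH4 or RH5 (0.0519 to 0.115), RFTN2 without DH3, DH4, RH1 or RH4 (0.0503 to 0.0801) and ENSCDRG00005015929 without DH2, DH3, DH4, RH1, RH3, RH4 or RH5 (0.0514 to 0.154) no longer passed the edgeR test (adjusted p in parentheses).

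**Figure D5:**
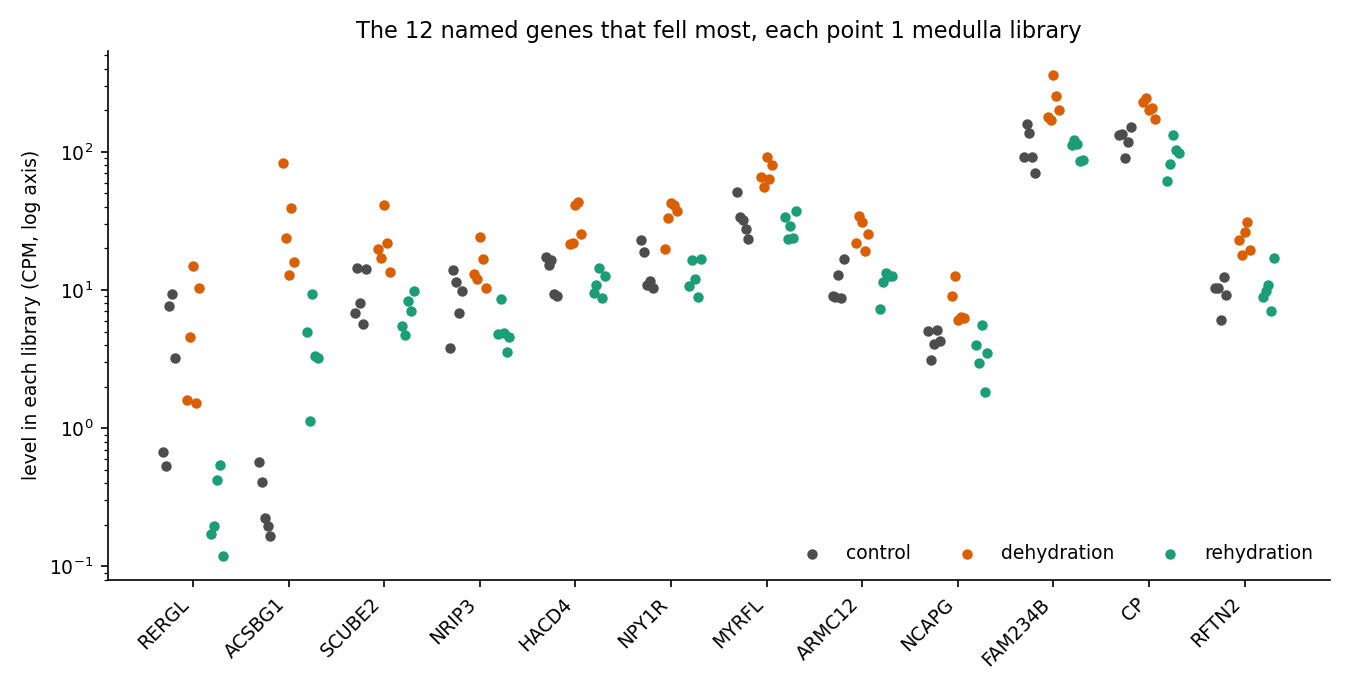
Levels (CPM, log axis) of the 12 named genes that fell most, each point being 1 medulla library, with 5 control (grey), 5 dehydration (orange) and 5 rehydration (green) libraries per gene. The dehydrated animals lie above the rehydrated ones for each gene, which the choice of these genes required. For ACSBG1 the controls, at 0.167 to 0.574 CPM, lie far below both.

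Most other families showed few calls or none. Of 86 solute carriers 1 rose and 3 fell (median -0.01), the fatty acid carrier SLC27A3 (0.86 ± 0.23, edgeR adjusted p = 0.0466) on 1 side and SLC4A11, SLC46A3 and the zinc carrier SLC30A9 (-0.46 ± 0.12, 0.0492) on the other. In glycolysis and the hypoxia response 11 genes were tested, of which PFKM, the muscle type of phosphofructokinase, rose from 77.1 ± 4.76 to 119 ± 25.6 CPM (log2 fold change 0.63 ± 0.14 (SE), edgeR adjusted p = 0.0195) and the collagen hydroxylase P4HA1 fell from 104 ± 9.76 to 71.1 ± 11 CPM (log2 fold change -0.55 ± 0.14 (SE), edgeR adjusted p = 0.0401). Of 21 proteasome subunits PSMD5 fell (-0.54 ± 0.14, 0.0383), of 95 vesicle trafficking genes VPS41 fell (-0.55 ± 0.13, 0.0287), and of 31 genes of nuclear transport IPO4 rose (0.45 ± 0.12, 0.0426) and NUP88 fell (-0.43 ± 0.11, 0.0389). Of 18 aminoacyl-tRNA synthetases the mitochondrial AARS2 rose (0.68 ± 0.14, 0.0128), and of 23 ZNF genes ZNF503 (1.19 ± 0.31, 0.0383), RH1 being highest at 51.5 CPM. By edgeR none was called among 34 heat shock proteins and chaperones (median 0.01), 31 translation factors (-0.09), 60 splicing factors and helicases (-0.09), 21 matrix, laminin and integrin genes (0.29), 7 endoplasmic reticulum chaperones (-0.08), 6 genes of amino acid synthesis (0.15) and 6 immediate early genes (-0.01). Over all genes with a symbol 4.6% were called. SLC27A3 without DH2, DH3, DH4, DH5, RH1, RH3 or RH4 (0.0796 to 0.132), SLC30A9 without DH2, DH3, DH4, RH1, RH2, RH3, RH4 or RH5 (0.0509 to 0.137), PFKM without DH3 or RH1 (0.0509 to 0.0571), P4HA1 without DH2, DH3, DH4, RH1, RH2, RH4 or RH5 (0.0521 to 0.147), PSMD5 without DH1, DH2, DH3, DH4, RH1, RH4 or RH5 (0.0566 to 0.14), AARS2 without RH1 (0.0567), VPS41 without DH3, DH4, RH1, RH2, RH3 or RH5 (0.0532 to 0.103), IPO4 without DH1, DH2, DH3, DH4, DH5, RH1, RH3 or RH5 (0.0614 to 0.113), NUP88 without DH1, DH2, DH3, DH4, DH5, RH1 or RH4 (0.0555 to 0.143) and ZNF503 without DH1, DH2, DH3, DH4, RH1 or RH5 (0.0575 to 0.2) no longer passed the edgeR test (adjusted p in parentheses).

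In the cortex of camels of the same groups 330 genes were called (2.15%). Whether the response differed between the tissues was tested with an interaction term over all genes, and 3 genes passed by edgeR (0.0195%), with 1376 below an unadjusted p of 0.05 (8.95%), 2 by limma-voom and 74 by DESeq2. SMOC1, a secreted matrix protein, had a log2 fold change of 0.21 in the medulla (edgeR adjusted p = 0.705) and of -1.62 in the cortex (0.00034), a difference of 1.83 (0.0388). RTN4, which shapes the endoplasmic reticulum, fell in the medulla (-0.59, 0.0384) and rose in the cortex (0.61, 0.0285), a difference of -1.20 (0.0388). Its medulla levels were 339.8, 350.2, 429, 373 and 332 CPM in the dehydrated and 185, 269, 271, 261 and 224 CPM in the rehydrated libraries, without overlap. LRRCC1, a centrosome protein, fell in the medulla (-0.51, 0.0389) and rose in the cortex (0.50, 0.0418), a difference of -1.01 (0.0442). How far these 3 differences rest on single cortex animals was not tested, as only medulla libraries were left out in turn. The 3 were chosen by this test after it was run. Without DH2, DH4, DH5, RH1 or RH4 no gene passed it, without RH2 1, without DH3 6, without RH3 or RH5 2, and with cortex and medulla libraries of equal replicate number as a block 0. For the rehydrated camels 0 of 5 such pairs carry the same number in the column names, so that, if those numbers mark animals, this block joined libraries of different camels. With the numbers of the column names as the block, 4 of which stand in both tissues for the rehydrated camels, SMOC1 alone passed (1 gene, a fit added after seeing the data). RTN4 without DH2, DH3, DH4, RH1 or RH5 (0.063 to 0.14) and LRRCC1 without DH2, DH3, DH4, RH1, RH3 or RH5 (0.0587 to 0.137) no longer passed the edgeR test (adjusted p in parentheses).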

How the data were processed

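RNA-seq was measured in 30 libraries, 5 per tissue and condition, grouped by the labels. The authors trimmed the reads, aligned them to CamDro2, counting read pairs per gene by strand with featureCounts against the Ensembl annotation, and the deposited values are these raw counts, used unchanged.  The study itself used DESeq2 (1.31.18 in the submitters' processing notes). Here counts were filtered with filterByExpr (minimum count 10, minimum total 15), scaled by TMM and fitted in 1 model of all 30 libraries with edgeR 4.0.16 in R 4.3.3 (quasi-likelihood test, two-sided, adjusted p below 0.05 over 15376 genes). The SE was the log2 fold change over the square root of F. In simulated data (15376 genes), 44.8% of 2-fold and 84.2% of 4-fold changes were found, and 38 of 554 calls were false. The simulation took each gene's mean per tissue over all conditions, its estimated spread and the depths of the libraries. Counts were drawn independently, with no shared camels and no library that stood apart as RH3 did. Whether these shares hold for the real libraries was not tested. Alternatives used DESeq2 1.42.0, limma-voom (limma 3.58.1), other scaling, filters, samples and a covariate for RNA integrity. Named genes were called, had a symbol, at least 1 CPM and no overlap, and were the 12 most changed and 5 of smallest p per direction, with listed pathway genes and 2 identifiers per direction. Members and lists were chosen with earlier results of these data known. A few genes are not reported here and stand in none of the lists. Symbols came from the article's lists and RefSeq. No sequence was used here.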

Additional observations from a re-analysis of the deposited data

Results flagged for a closer look

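In 260 groups of 5 medulla libraries (genes named here and list sums), 9 had a single library separated from the other 4 by a gap above Dixon's 95% critical value of 0.71 of the range, where chance alone marks about 1 group in 20. In dehydration these were SQLE in DH2 (61.1 CPM, highest), SLC9A7 in DH4 (15.9 CPM, highest), DDR1 in DH1 (89.6 CPM, highest) and ENSCDRG00005018399 in DH5 (0.858 CPM, highest). In rehydration these were NRIP3 in RH2 (8.59 CPM, highest), KRT19 in RH3 (748 CPM, highest), ATP5MC1 in RH4 (358 CPM, highest), SREBF2 in RH5 (136 CPM, highest) and ACADS in RH2 (279 CPM, lowest).

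For 3 genes the test of the difference between the medulla and the cortex response passed. The difference was 1.83 on the log2 scale for SMOC1, -1.20 for RTN4 and -1.01 for LRRCC1. The medulla response of SMOC1 did not pass by itself, and those of RTN4 and LRRCC1 did.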

How the results depend on the processing

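The count of 306 genes became 58 at an adjusted p below 0.01, 860 with DESeq2, 498 with limma-voom, 56 with the 10 libraries alone and 565 with the bias-adjusted quasi-likelihood fit, which was added after seeing the data and made 99 false calls of 658 in simulation. It stayed within 1.5 times with the other scaling (321), no filter (218), a mean of at least 1 CPM (319), RNA integrity as a covariate (219), and was 479 with the 15 medulla libraries. With 1 library left out it ran from 83 to 283. The other scaling moved the median of all genes by 0.01. Replicate numbers were shared by the groups but did not pair the animals (correlations of deviations for equal numbers -0.271 to 0.0898). With the replicate number as a block 3 genes were called. The 3 genes that differed between tissues became 74 with DESeq2, 2 with limma-voom, 2 with the other scaling, 2 without the filter, 0 with the replicate number as a block, 1 with the number of the column names as a block, and 0 to 6 with 1 of the 10 medulla libraries left out. No cortex library was left out. Of 98 named genes, 54 lost the call with the 10 libraries alone and 82 with the block, where 97 were tested. The call was lost by 54 at 0.01, 16 with RNA integrity, 12 without the filter and 0 with DESeq2. The 98 include genes not called with all libraries, such as AQP2 and SLC9A7, which had no call to lose. The genes that kept a call are thus fewer than these counts leave. The direction turned once, for the log2 fold change of SLC9A7, which was not called (0.10 with all libraries, -0.0026 to 0.35 with 1 left out, the lowest being without RH1, edgeR adjusted p = 0.998, over its alternatives 0.633 to 0.998). The cause of these shifts was not tested. At 5 animals a group the median SE was 0.28, and 44.8% of simulated 2-fold changes were found.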

Other observations

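Besides PCYT2, 4 further enzymes of phospholipid metabolism are given, which fell and were chosen after their values were seen. CHPT1, which makes the last step of phosphatidylcholine synthesis, stood at 161, 189.7, 125, 150.2 and 140.4 CPM in the dehydrated and at 71.4, 79.2, 95.8, 89.7 and 83 CPM in the rehydrated libraries (log2 fold change -0.87 ± 0.18 (SE), edgeR adjusted p = 0.00925). The groups did not overlap, and the controls were at 71.9 to 151 CPM. PLA2G4A, the phospholipase that frees arachidonate for prostaglandins, stood at 98.1, 88.2, 117, 124 and 107 CPM and then at 62.9, 78.7, 51.6, 52.3 and 69.2 CPM (log2 fold change -0.76 ± 0.19 (SE), edgeR adjusted p = 0.0283). It was lower in every rehydrated than in any dehydrated animal. The acyltransferase LPCAT2 averaged 25.3 ± 6.21 and 15.2 ± 1.95 CPM (log2 fold change -0.74 ± 0.18 (SE), edgeR adjusted p = 0.031) and the phospholipase PLA1A 72.6 ± 22.1 and 40.2 ± 5.77 CPM (log2 fold change -0.85 ± 0.17 (SE), edgeR adjusted p = 0.00962). IMPA1, which frees the osmolyte inositol from its phosphate, averaged 38 ± 3.92 and 26.7 ± 2.24 CPM (log2 fold change -0.51 ± 0.13 (SE), edgeR adjusted p = 0.0394). The calls of CHPT1 and PLA1A held without any 1 of the 10 libraries. PLA2G4A without DH3, DH4, RH1, RH3 or RH4 (0.0589 to 0.0877), LPCAT2 without DH3, DH4, RH1, RH2 or RH5 (0.0604 to 0.115) and IMPA1 without DH2, DH3, DH4, DH5, RH1, RH2, RH3, RH4 or RH5 (0.0507 to 0.137) no longer passed the edgeR test (adjusted p in parentheses).

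Further single genes that rose are given here, also chosen after their values were seen, so that they say nothing about a class of genes. PLXNB1, a semaphorin receptor, averaged 189.7 ± 29.4 and 331 ± 79.8 CPM (log2 fold change 0.80 ± 0.18 (SE), edgeR adjusted p = 0.0178). The receptor phosphatase PTPRF had a log2 fold change of 0.52 ± 0.13 (edgeR adjusted p = 0.0342) and the collagen receptor DDR1 of 0.54 ± 0.12 (0.0178). KRT19, a keratin of duct epithelium, stood at 90.2, 124, 149.6, 76.5 and 96 CPM in the dehydrated and at 263, 220.3, 748, 254 and 123 CPM in the rehydrated libraries (log2 fold change 1.58 ± 0.37 (SE), edgeR adjusted p = 0.023), where RH3 was far above the other rehydrated animals and RH5 lay within the dehydrated range. NGB, neuroglobin, was at 5.79, 1.87, 1.11, 2.16 and 4.21 CPM and then at 16.7, 14.7, 41.9, 19.3 and 2.22 CPM (log2 fold change 2.65 ± 0.66 (SE), edgeR adjusted p = 0.033), again with RH3 highest and RH5 in the dehydrated range. PLXNB1 without RH1 (0.0828), PTPRF without DH1, DH2, DH3, DH5, RH1 or RH2 (0.056 to 0.108), DDR1 without DH3, DH4 or RH1 (0.0509 to 0.0564), KRT19 without DH1, DH4 or RH3 (0.0505 to 0.101) and NGB without DH2, DH3, DH4, DH5, RH1 or RH3 (0.0506 to 0.0999) no longer passed the edgeR test (adjusted p in parentheses).

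The identifier ENSCDRG00005021452 (chr20:22095402-22102387, minus strand), which has no symbol here and was chosen after its values were seen, had the largest fitted rise of the called genes. It stood at 1.47, 2.49, 0.555, 0.393 and 1.8 CPM in the dehydrated, at 0.767, 18.8, 102, 34.7 and 21.6 CPM in the rehydrated and at 4.06, 30.0, 28.9, 28 and 48.3 CPM in the control libraries (log2 fold change 4.72 ± 0.86 (SE), edgeR adjusted p = 0.00378). Over its alternatives the adjusted p of the log2 fold change of ENSCDRG00005021452 was 6.32e-07 to 0.283, and without RH3 the log2 fold change was 3.81. RH1 lay within the dehydrated range, and the other rehydrated animals were above every dehydrated one. In the cortex its response was 5.80 on the log2 scale (0.00108). It was called by edgeR with any 1 library left out, and not by limma-voom or with the 10 libraries alone.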
